A study of Sus scrofa with 2 samples.

Results

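TNC, COL5A1, SPP1, ITGAV, ITGB1 and SDC4 encode proteins of the extracellular matrix and receptors by which cells hold on to it. The genes were chosen by name, with earlier results of these data known, and no measured value enters the rule: every probe other than controls whose RefSeq transcript belongs to one of them was taken from both arrays. All 6 were found, with 21 probes, among the 2459 genes that could be named on the arrays. All 6 were also among the 2363 genes that gave a difference between the arrays. TNC, COL5A1 and SPP1 are the matrix proteins, and ITGAV, ITGB1 and SDC4 are the receptors.

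Total RNA was taken from ovaries of conventional pigs (Yorkshire sows) and of minipigs (Midget pigs) on day 15 of the estrous cycle, after the corpora lutea had been removed. The animals were 10 months old, and ovaries of 5 animals per breed were collected. Each breed is represented by 1 single-colour porcine array, and whether an array carried RNA of 1 animal or of several is not stated in the sources used here. The study asked how the ovaries of the breeds differ in gene expression.

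The extracellular matrix is a network of collagens, glycoproteins and proteoglycans outside the cells. Cells bind it through integrins, which are built of an alpha and a beta chain, and through syndecans, which carry heparan sulfate chains and work beside integrins. In the ovary this network is rebuilt as follicles grow and regress and as corpora lutea form and break down.

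The breed labels of the arrays conflict between the deposited sources. The deposited log2 table gives as conventional pig the array that the scanner files call minipig, and the reverse, and which is right was not determined here. Every value below carries the label of its scanner file, so pig and minipig change places in each statement if the table is right. Of the member probes, the table lists 5, both of TNC and 1 each of COL5A1, SPP1 and SDC4.

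Levels are log2 intensities minus the 75th percentile of the same array, which lay at an intensity of 513 on the pig array and 494 on the minipig array, so that 0 is the 75th percentile. A log2 difference is pig minus minipig, and a negative value means a higher signal on the minipig array. With 1 array per breed no difference has a replicate check, no test was run, and the number of arrays limits the precision. The only measured technical spread comes from 42 probes printed several times, whose spots had an SD of 0.15 on the pig array and 0.20 on the minipig array, or 0.25 for a difference of 2 single spots on the log2 scale. The error that the scanner software assigns to the difference of a member probe was between 0.20 and 0.23. Neither of them covers the spread between animals.

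On both arrays, all 21 member probes were well above background. All 9 probes of TNC, COL5A1 and SPP1 gave a higher signal on the minipig array, at the 75th percentile as well as after normexp correction, median centring, quantile and loess normalization. Of the 12 probes of ITGAV, ITGB1 and SDC4, 8 gave a higher signal on the pig array, a count that became 11 after median centring and 6 after quantile or loess normalization because the probes of ITGB1 changed sign. Over all 38883 probes with a difference, 22553 were higher on the minipig array and 16330 (42.0%) on the pig array, at the 75th percentile. Most of these probes name no gene. Of the 2363 named genes with a difference, 1123 were higher on the minipig array and 1240 (52.5%) on the pig array. By the median over its probes, TNC passed 2-fold on the minipig side, as did 7.96% of all 2363 genes. SDC4 passed 2-fold on the pig side, as did 11.7% of all genes. A count of 1 gene in each direction out of 6 is too small to set the members apart from the other genes. Of the single probes, 4 of 21 passed 2-fold on the minipig side (2 after normexp correction, 3 after median centring), where the share over 38883 probes was 8.94%, and 1 of 21 on the pig side, where it was 7.48%. Among all genes past 2-fold, 59.6% were higher on the pig array, and this share was 72.2% after median centring.

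**Figure D1:**
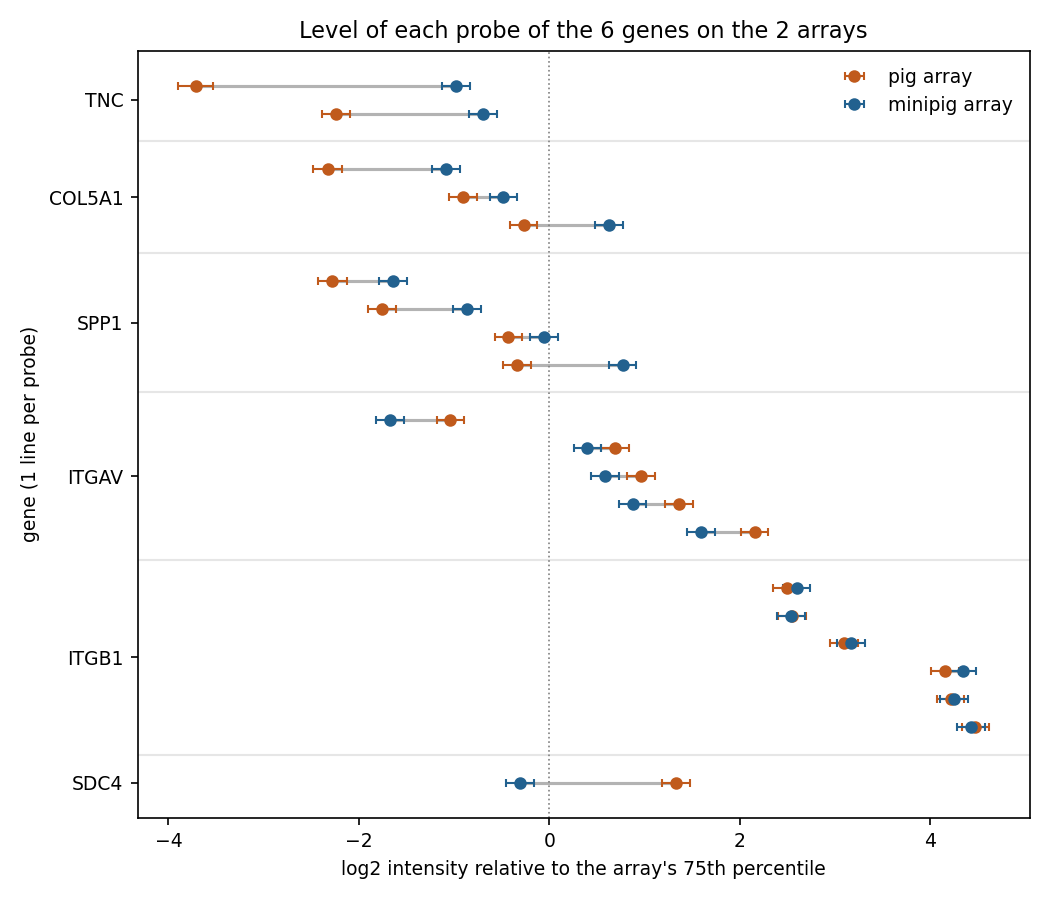
Log2 level of each of the 21 probes of the 6 genes, relative to the 75th percentile of its array (horizontal axis), on the conventional pig array and the minipig array, with 1 line per probe and bars for the error assigned by the scanner software. The minipig point lies to the right for all 9 probes of TNC, COL5A1 and SPP1, the pig point lies to the right for all 5 probes of ITGAV and for SDC4, and the points of ITGB1 overlap.

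TNC encodes tenascin C, a large matrix glycoprotein that appears where tissue is being remodelled and that loosens the hold of cells on fibronectin. Its transcript, NM_214230, had 2 probes. Probe A_72_P035426 had an intensity of 108 on the pig array and 305 on the minipig array, a log2 difference of -1.54. Probe A_72_P638389 had an intensity of 39.1 on the pig array and 251 on the minipig array, a log2 difference of -2.73. Both probes were lower on the pig array than on the minipig array, and both passed 2-fold. The lowest intensity called well above background was 11.5 on the pig array, so neither pig value of TNC was a bound. By the median over its probes, the log2 level of TNC was -2.98 on the pig array and -0.84 on the minipig array, a difference of -2.14 or 4.40-fold. Only 31 of the 2363 genes, TNC included, lay as far or farther in this direction, or 1.31%. The probes of TNC disagreed on the size of the difference by 1.19, against a median range of 0.37 over the 1220 genes with several probes, and normexp background correction brought the difference of TNC to -1.45.

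COL5A1 encodes the alpha 1 chain of type V collagen, a minor fibrillar collagen that is built into fibrils of type I collagen and limits their width. Its transcript, NM_001014971, had 3 probes. Probe A_72_P077826 had an intensity of 425 on the pig array and 764 on the minipig array (log2 difference -0.90). Probe A_72_P444639 had 102 and 233 in the same order (-1.24), and probe A_72_P495841 had 273 and 354 (-0.42). The minipig array was brighter for each probe of COL5A1, and 1 of the 3 probes passed 2-fold, though none after normexp correction. The median difference of COL5A1 was -0.90, or 1.86-fold, and 226 genes (9.56%) lay as far or farther in that direction.

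The chains that join COL5A1 in type V collagen did not share its direction. COL5A2, the alpha 2 chain, had a log2 level of 2.32 on the pig array and of 1.99 on the other. Its 4 probes gave differences from 0.18 to 0.98 with a median of 0.33. COL5A3, the alpha 3 chain, had 1 probe, with a level of -1.37 on the pig array, -1.84 on the minipig array and a difference of 0.48. Across the 8 alternatives run on the scanner files, COL5A1 stayed between -0.94 and -0.74, and neither COL5A2 nor COL5A3 changed sign. COL5A2 lay between 0.13 and 0.48 and COL5A3 between 0.44 and 0.63. The lowest value of COL5A2, and its probes at 0.18 and 0.22, were smaller than the 0.25 between single spots.

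SPP1 encodes osteopontin, a secreted phosphoprotein that integrins with the alpha V chain bind and that macrophages and epithelia are known to make. Its transcript, NM_214023, had 4 probes. Probe A_72_P441454 had an intensity of 406 on the pig array and 842 on the minipig array (log2 difference -1.11), and probe A_72_P733328 had 152 and 272 (-0.89). Probe A_72_P743571 had 381 and 476 (-0.37), and probe A_72_P744403 had 106 and 159 (-0.64). All 4 probes of SPP1 were brighter on the minipig array, and 1 of them passed 2-fold, though none after normexp correction or median centring. The median difference of SPP1 was -0.77, or 1.70-fold, a size that 277 genes (11.7%) reached or passed in that direction. Every probe of TNC, COL5A1 and SPP1 differed between the arrays by more than the 0.25 between single spots.

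In bulk tissue, fewer cells of a type and less RNA per cell cannot be told apart, and most markers of granulosa cells, oocytes and smooth muscle with a value lay in the same direction as TNC, COL5A1 and SPP1. The lists of markers are summarised by counts, medians and the summed level of their genes, in units of the 75th percentile intensity of the array. Of 11 granulosa markers, 8 had a value and 7 were higher on the minipig array (6 after median centring, where FST changed sign). Of these, 5 were at least 2-fold apart, or 4 without AMH after median centring or with the brightest probe. INHBA was among the 5, although its 2 probes disagreed in direction, at -3.91 and 0.37. The list had a median of -1.40, led by FSHR (-3.63) and HSD17B1 (-2.96). Its summed level was 18.2 on the pig array, where FST was brightest, and 41.3 on the minipig array, where HSD17B1 was. All 6 oocyte markers with a value, of 9, were higher on the minipig array, apart from BMP15 after normexp or with its brightest probe, and 2 passed 2-fold, joined by ZP2 with the brightest probe. The list had a median of -0.88, led by ZP4 (-1.41) and ZP3 (-1.33). Summed levels were 1.53 on the pig array and 3.04 on the minipig array, with ZP4 brightest on both. Of 8 smooth muscle markers, 4 had a value and 3 were higher on the minipig array (4 after quantile or loess normalization, where ACTA2 changed sign), 2 of them at least 2-fold, with a median of -0.76, led by DES (-2.00) and CNN1 (-1.32). Their summed levels were 79.2 on the pig array and 81.6 on the minipig array, with ACTA2 brightest on both. Theca markers lay in both directions: all 5 had a value, 3 higher on the minipig array and 2 on the pig array, with 2 past 2-fold each way (1 on the minipig side with the brightest probe) and a median of -0.62, between INSL3 (-3.76) and STAR (3.07). Their summed levels were 199 on the pig array, with STAR brightest, and 105 on the minipig array, with INSL3 brightest. The part of these cell types in the differences of TNC, COL5A1 and SPP1 was not tested.

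Of 10 stromal fibroblast markers 2 had a value, DCN at -0.36 and THY1 at 0.68, with a median of 0.16 that was -0.01 after normexp correction, and summed levels of 36.0 on the pig array and 47.2 on the minipig array, DCN being brightest on both. Of 17 macrophage markers 7 had a value, 5 higher on the pig array (4 after quantile normalization) and 2 on the minipig array, with a median of 0.29, led by CD14 (1.04) and CD86 (0.84). CD14 alone of them passed 2-fold, but not after normexp correction, and CD86 joined it after quantile or loess normalization. The summed levels of the list were 11.3 on the pig array and 9.31 on the minipig array, with C1QA brightest on both. Of 8 surface epithelium markers 3 had a value, 2 higher on the minipig array and 1 on the pig array, with a median of -0.28, from CDH1 (-0.41) to EPCAM (0.31), and summed levels of 0.738 on the pig array and 0.870 on the minipig array, KRT8 being brightest on both. The probes of SPP1 were higher on the minipig array, in the direction opposite to the median of the macrophage list. Within that list, CD163 (-0.25) and LYZ (-0.20) were higher on the minipig array, as SPP1 was. The median of the surface epithelium list lay on the same side as SPP1. The part of macrophages or epithelial cells in the level of SPP1 was not tested.

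ITGAV encodes the integrin alpha V chain, which pairs with several beta chains to bind osteopontin, vitronectin and other proteins with an RGD motif. Its transcript, NM_001083932, had 5 probes. Probe A_72_P165441 had an intensity of 2287 on the pig array and 1491 on the minipig array (log2 difference 0.56), and probe A_72_P440931 had 1316 and 906 (0.49). Probe A_72_P471875 had 249.6 and 155 (0.64), probe A_72_P560719 had 999 and 740.0 (0.38), and probe A_72_P696261 had 828 and 652 (0.29). The pig array was brighter for each probe of ITGAV, none of them reached 2-fold, and 2 of the 5 probes differed by more than 0.51, which is 2 SD between single spots. The median difference of ITGAV was 0.49, or 1.40-fold, and 643 genes (27.2%) lay as far or farther in that direction. The direction of ITGAV was thus opposite to that of SPP1, which encodes one of its ligands. VTN, which encodes vitronectin, had a median difference of 0.24, on the same side as ITGAV. Its 6 probes ranged from -1.02 to 1.29 and so disagreed in direction.

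The beta chains that pair with ITGAV and had a value differed little. ITGB3 had differences of -0.09 and 0.01 at its 2 probes, ITGB8 -0.10 and 0.05 at its 2 probes, and ITGB6 0.06 at its only probe. The ITGB3 probe at -0.09 had an intensity of 396211 on the pig array and 405195 on the minipig array. Whether it reads ITGB3 alone was not checked. None of these values exceeded the 0.25 between single spots, and the sign of the median changed with the processing for ITGB3, ITGB6 and ITGB8. Across the 8 alternatives run on the scanner files, ITGB6 lay between -0.03 and 0.35, so it passed 0.25 at its highest. ITGB5 and CD44, a further receptor of osteopontin, were not named by any probe and were not analysed here.

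ITGB1 encodes the integrin beta 1 chain, the shared partner of most alpha chains that bind collagen, laminin and fibronectin, and also a partner of ITGAV. Its transcript, NM_213968, had 6 probes. Probe A_72_P195557 had an intensity of 11399.9 on the pig array and 10625 on the minipig array (log2 difference 0.05), probe A_72_P223772 had 9510.1 and 9390.1 (-0.03), and probe A_72_P682292 had 9128 and 10009.6 (-0.19). Probe A_72_P652927 had 4372 and 4446 (-0.08), probe A_72_P639944 had 2998 and 2874 (0.01), and probe A_72_P574364 had 2893 and 2993 (-0.10). The arrays overlapped in ITGB1. By log2 difference, 4 probes were higher on the minipig array and 2 on the pig array. Probe A_72_P223772 was among the 4, although its intensity before scaling was higher on the pig array. Every difference was smaller than the 0.25 between single spots. The median difference of ITGB1 was -0.06, and it was 0.10 after median centring and -0.37 after quantile normalization, so no direction can be given for it. Of all genes, 31.8% lay within 0.25 of zero, as ITGB1 did. The alpha chains ITGA1 to ITGA11, which pair with ITGB1, were not named by any probe and were not analysed here.

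SDC4 encodes syndecan 4, a membrane proteoglycan that binds fibronectin and joins integrins in focal adhesions. Its transcript, NM_214284, had 1 probe, A_72_P177941, with an intensity of 1291 on the pig array and 400.0 on the minipig array. SDC4 was higher on the pig array, at a log2 level of 1.33, than on the minipig array, at -0.31. The difference of 1.64, or 3.11-fold, was reached or passed in that direction by 119 genes (5.04%), and it stayed between 1.51 and 1.79 across the 8 alternatives run on the scanner files. No other probe can check this value of SDC4, whereas of the 1220 genes with several probes 72.0% had all of them on the same side of zero.

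**Figure D2:**
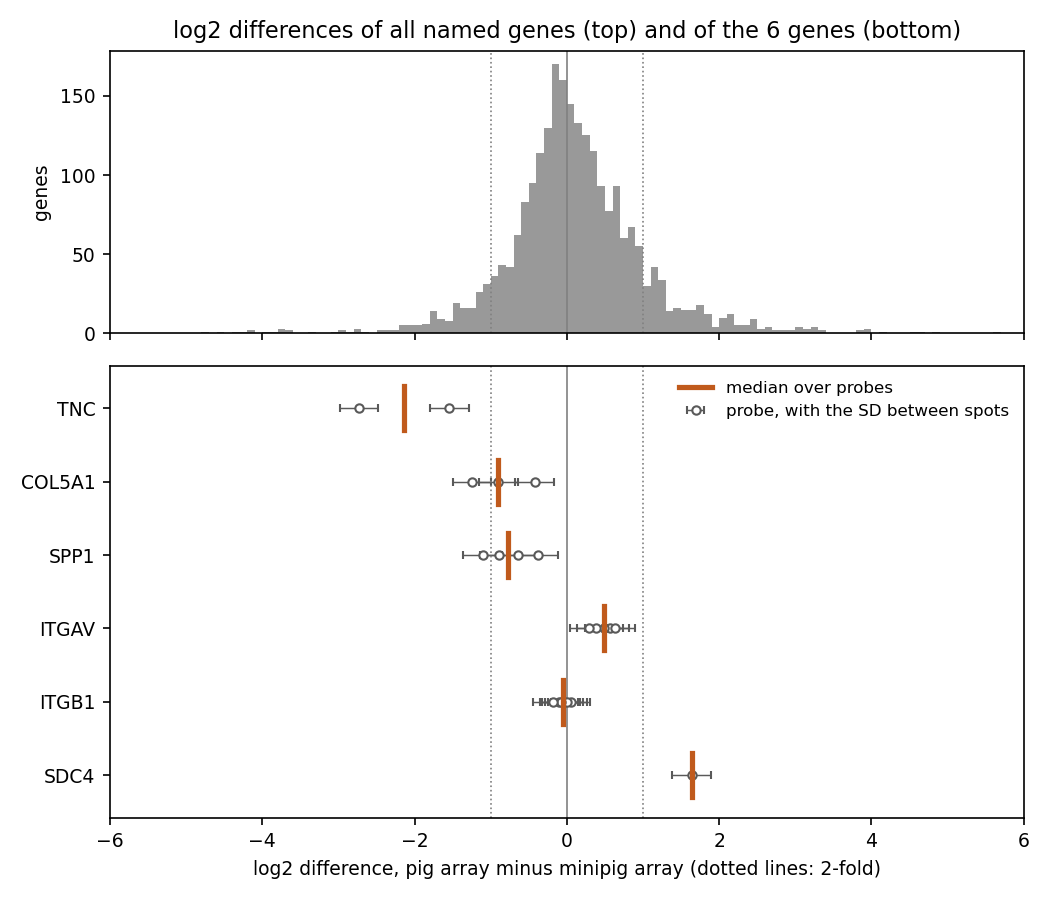
Log2 differences, pig array minus minipig array (horizontal axis), as a histogram of the 2363 named genes (top) and for the 6 genes (bottom), where circles are probes with bars of 0.25, the SD between single spots, and thick lines are medians over probes. TNC (-2.14) and SDC4 (1.64) lie beyond the dotted 2-fold lines, COL5A1 (-0.90) and SPP1 (-0.77) lie inside the left line, ITGAV (0.49) is right of zero and ITGB1 (-0.06) is at zero.

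Ordered by their log2 differences, the members ran from TNC over COL5A1, SPP1, ITGB1 and ITGAV to SDC4. COL5A1 and SPP1 lay 0.13 apart, less than the 0.25 between single spots, and the other neighbours lay farther apart than that. The 0.25 is the spread of a single difference. It does not give the spread of a gap between the differences of separate genes. Over all 2363 genes the median difference was 0.04 and the quartiles were -0.36 and 0.55, so that TNC, COL5A1 and SPP1 lay below the lower quartile, SDC4 lay above the upper quartile, and ITGAV and ITGB1 lay between them. Median centring moved the median of all genes by 0.15. Relative to the median of all genes the difference was -2.17 for TNC, -0.94 for COL5A1, -0.80 for SPP1, 0.45 for ITGAV, -0.09 for ITGB1 and 1.60 for SDC4.

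Most luteal and endothelial markers with a value lay in the same direction as SDC4 and ITGAV, whereas lymphocyte markers lay in both directions. All 8 luteal markers had a value although corpora lutea had been removed, and 7 were higher on the pig array, 5 of them at least 2-fold, with a median of 2.47, led by HSD3B1 (3.11) and STAR (3.07). STAR, CYP11A1 and LHCGR stand in both the luteal and the theca list. The summed level of all 8 luteal markers was 352 on the pig array, with STAR brightest, and 122 on the minipig array, with OXT brightest. All 4 endothelial markers with a value, of 10, were higher on the pig array, none of them 2-fold except FLT1 after median centring, quantile or loess normalization, with a median of 0.68, led by FLT1 (0.95) and ENG (0.80), and summed levels of 5.86 on the pig array and 3.75 on the minipig array, ENG being brightest on both. Of 11 lymphocyte markers 6 had a value, 3 higher on each array, with a median of 0.05, but this became 5 on the pig array against 1 after quantile or loess normalization, and 2 and 4 after normexp. CD3G was at -1.31, past 2-fold with a bound at 1 of its probes but not after normexp, without bounds or with its brightest probe, and CD3D at 0.28. The summed levels of the list were 0.904 on the pig array and 0.916 on the minipig array, CD3E was brightest on both, and CD4 was not well above background on either. The part of luteal, endothelial or immune cells in the differences of SDC4 and ITGAV was not tested.

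The other genes of the matrix and of cell adhesion were taken from 8 lists of 214 genes, of which 43 had a value, so that no list was covered beyond 36.4%. Without the 6 members, 37 of 208 genes had a value, 19 of them higher on the pig array and 18 on the minipig array, or 24 and 13 after median centring and 18 and 19 with dim probes kept as measured. Their median difference was 0.06 with quartiles of -0.24 and 0.32, and the median was -0.01 with dim probes kept as measured, so no direction can be given for it. Besides TNC and SDC4, CTGF passed 2-fold on the minipig side, though not after median centring (-0.88), and FYN on the pig side. TNC lay lowest and SDC4 highest of all 43 genes.

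Beside TNC and SPP1, 8 other matrix glycoproteins had a value, which with them made 10 of 55, of which 5 were higher on each array, with a median of -0.13 that was 0.02 after median centring. CTGF, a matrix-bound growth regulator, had a level of 0.48 on the pig array and 1.52 on the minipig array (-1.04, 1 probe). FBN1, the fibrillin of elastic microfibrils, was at 0.70, and MGP, an inhibitor of calcification, at 0.57. Beside COL5A1, the fibrillar collagens with a value, 4 of 11 with COL5A1, were COL5A2, COL5A3 and COL11A1, the last at -0.16 with a sign that turned under normexp, quantile and loess processing. The median of the list, COL5A1 included, was 0.08. Other collagens had 2 of 24 values, COL8A1 at 0.44 and COL10A1 at 0.20, with a median of 0.32. Of the proteoglycans and enzymes of hyaluronan, 5 of 19 had a value, 2 higher on the pig array and 3 on the minipig array with a median of -0.24, among them ACAN (-0.44), DCN (-0.36) and HAS3 (0.17, below zero after normexp). P4HA1, at -0.16, was the only value among 22 genes of collagen synthesis.

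On the receptor side, ITGAV and ITGB1 belong to 8 of 26 integrin chains with a value, 3 higher on the pig array and 5 on the minipig array, or 7 and 1 after median centring, with a median of -0.02. ITGAV lay highest of these and ITGAL, a chain of leukocyte integrins, lowest at -0.49, while ITGB2, its partner, was at 0.14. SDC4 was 1 of 6 other matrix receptors with a value, of 23, which had a median of 0.04 and 3 genes in each direction. DDR1, a collagen receptor kinase, was at -0.55, GP1BB at -0.24 and CD36 at 0.43. Of 34 genes of integrin adhesion and signaling 7 had a value, 4 higher on the pig array and 3 on the minipig array, with a median of 0.30 that was -0.05 after quantile normalization. FYN, a kinase that acts below integrins, had a level of -0.86 on the pig array and -1.92 on the minipig array (1.07, 1 probe), CRK was at 0.45, SRC at -0.33 and CAV1 at -0.29.

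**Figure D3:**
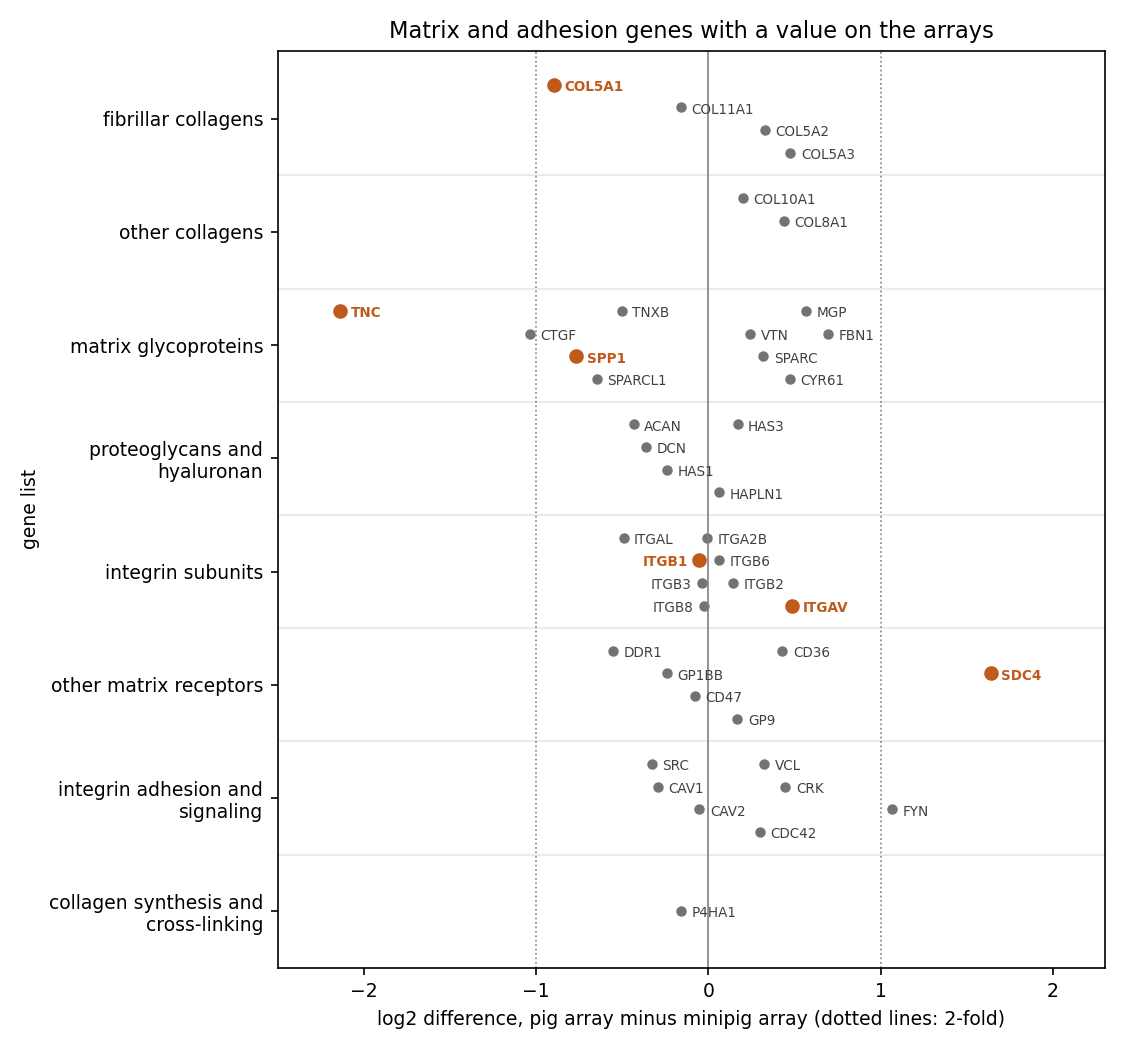
Log2 difference, pig array minus minipig array (horizontal axis), of each matrix or adhesion gene with a value, by gene list (vertical axis), with TNC, COL5A1, SPP1, ITGAV, ITGB1 and SDC4 in colour and dotted lines at 2-fold; the offset within a list only separates the names. TNC (-2.14) and CTGF (-1.04, or -0.88 after median centring) lie left of the dotted lines, and SDC4 (1.64) and FYN (1.07) lie right of them.

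Among the listed genes outside the members, likeness was measured as the distance between log2 differences, over 2 arrays only. The 0.25 between single spots does not give the spread of such a distance. Nearest to TNC were CTGF, at a distance of 1.10, and SPARCL1, at 1.49, neither of them within the 0.25 between single spots. Nearest to COL5A1 were CTGF (0.14) and SPARCL1 (0.25), and nearest to SPP1 were SPARCL1 (0.12) and DDR1 (0.21). SPARCL1, a matrix glycoprotein of the SPARC family, was higher on the minipig array at all 7 probes, with a median of -0.65. COL5A3 and CYR61 lay nearest to ITGAV, each at 0.01, and CAV2 (0.0035) and ITGB3 (0.02, by a median that includes the unchecked probe) nearest to ITGB1. FYN (0.57) and FBN1 (0.94) were nearest to SDC4, neither of them within the 0.25 between single spots.

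**Figure D4:**
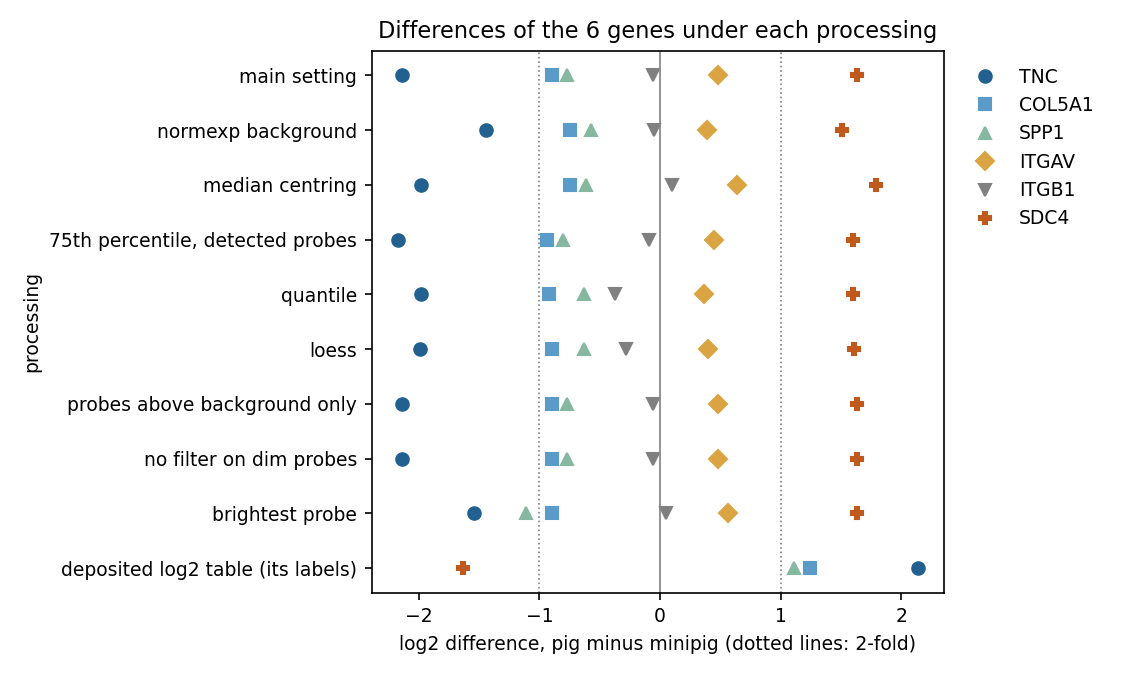
Log2 difference, pig minus minipig (horizontal axis), of the 6 genes under each processing (vertical axis), with dotted lines at 2-fold. TNC, COL5A1 and SPP1 stay left of zero and ITGAV and SDC4 right of it under all 8 alternatives run on the scanner files, ITGB1 lies between -0.37 and 0.10, and with the labels that the deposited table gives, in which ITGAV and ITGB1 are not listed, the directions are exchanged.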

How the data were processed

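The authors deposited scanner output of 2 single-colour Agilent arrays; the submitters' processing notes name Agilent Feature Extraction 10.7.3.1. In it the deposited intensity of a spot has had background and spatial trend removed, with no scaling between arrays. The authors also deposited a log2 table of 5617 probes, each past 2-fold, whose columns follow the scanner arrays of the opposite breed label minus 8.94 and 9.00, with largest departures of 0.0072 and 0.025.

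Of 43803 spots other than controls, outlier spots (10 on the pig array, 5 on the minipig array) were left out, and none was saturated. Repeated spots were averaged as log2 values, giving 43597 probes, and the 75th percentile of each array was subtracted. Well above background were 85.2% of the probes on the pig array and 88.1% on the minipig array. A probe at background on 1 array gave a bound against the lowest intensity well above background there (11.5 on the pig array, 10.6 on the minipig array), or its own intensity if higher. For a gene, the median over probes was taken, separately for levels and for differences. Accessions without versions matched RefSeq of Sscrofa11.1 for 5577 of 43597 probes, which name 2459 genes. Coordinates were not used.

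Named are all members with every probe, the chains that pair with them, the 2 listed genes nearest to each member, the 2 genes of each pathway list that differed most in each direction and were well above background on both arrays, and the 2 genes of each marker list with the largest difference. VTN, CD163, LYZ and INHBA are named in addition to these. Members and lists were chosen with earlier results of these data known. The alternatives were normexp background correction (offset 50), planned on mean signals and run on median spot signal and median local background because the files give no mean signal, the 75th percentile over the probes that both arrays detected, median centring, quantile and loess normalization (span 0.3), dim probes kept as measured, dim probes left out, the brightest probe of a gene, and the deposited log2 table. Software was Python 3.11.15, numpy 2.4.6, pandas 2.3.3, statsmodels 0.14.6, matplotlib 3.10.9, R 4.3.3 and limma 3.58.1. The result for 1 marker gene is not reported here. The steps were checked on simulated data.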

Additional observations from a re-analysis of the deposited data

How the results depend on the processing

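Across 8 alternatives run on the scanner files, TNC lay between -2.17 and -1.45, COL5A1 between -0.94 and -0.74, SPP1 between -1.11 and -0.57, ITGAV between 0.37 and 0.64 and SDC4 between 1.51 and 1.79, so none of these changed sign, whereas ITGB1 did after median centring and with the brightest probe. Normexp background correction gave -1.45 for TNC and left 98 named genes (4.15%) past 2-fold on the minipig side. Median centring left 1 matrix or adhesion gene, TNC, and 140 named genes (5.93%) past 2-fold on the minipig side. Quantile normalization brought ITGB1 to -0.37. With the brightest probe, TNC was at -1.54 and SPP1 at -1.11. In that setting 2 members and 4 matrix or adhesion genes passed 2-fold on the minipig side, as did 176 named genes (7.45%). The deposited log2 table, under its own labels, gave 2.14 for TNC, 1.25 for COL5A1, 1.11 for SPP1 and -1.63 for SDC4, with 3 members, 5 matrix or adhesion genes and 231 named genes past 2-fold on its pig side and 1, 2 and 330 on its minipig side. It lists only probes past 2-fold, 1 each of COL5A1 and SPP1, so their values there are those of single probes, and it gives no shares or medians of lists. The brightest-probe values are likewise those of single probes. Median centring adds the same shift of 0.15 to every probe, and for normexp and quantile normalization the cause was not tested. No paired analysis was possible because each breed has 1 array. Signal over background limits the dim probes, among which the pig intensity of 39.1 for TNC was the lowest of any member.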
